A study of Mus musculus with 22 samples.

Results

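The insulin-like growth factor (IGF) system was examined through 9 genes: the ligands Igf1 and Igf2, the receptor Igf1r, and the binding proteins Igfbp2, Igfbp3, Igfbp4, Igfbp5, Igfbp6 and Igfbp7. All probes whose accession maps to 1 of these symbols were taken, which gave 13 of the 55681 probes on the array and 9 of the 20018 genes that could be named. Igf1 has 4 probes, Igfbp2 has 2 and every other gene has 1. Of the 13 probes, 10 were detected on at least 4 arrays of a group, and the other 3 (Igfbp3, Igfbp5 and Igfbp7) are kept below as signals near background. Igf2 is among the 10 through the low dose only and was near background too.

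The cells were FE1, a line of lung epithelial origin from the transgenic MutaMouse. They were incubated for 24 h with Mitsui7, which consists of multi-walled carbon nanotubes. The controls received 0 µg/ml (5 arrays). The low dose was 12.5 µg/ml (6 arrays), the medium dose was 25 µg/ml (5 arrays) and the high dose was 100 µg/ml (6 arrays). All groups were grown in the same medium with fetal bovine serum and epidermal growth factor, and all are 1 cell line. On each of the 22 arrays the RNA of the sample carried Cy5 and a reference RNA pooled from mouse cell lines carried Cy3, and each probe was read as the log2 of Cy5 over Cy3, here called its log2 ratio. The sample always carried the same dye, so a preference of a probe for 1 dye affects its level against the reference but not the differences between groups.

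Igf1 and Igf2 are secreted peptides that bind the receptor tyrosine kinase encoded by Igf1r, which signals through insulin receptor substrates to the PI3 kinase and Akt pathway and favours growth and survival. The binding proteins hold IGFs outside the cell, carry them and limit or prolong their access to the receptor, and are themselves cut by proteases such as pappalysins. In the lung Igf1 is known mainly as a product of mesenchymal cells and macrophages, and it is studied in repair and fibrosis. Igfbp7 differs from the other binding proteins in its low affinity for IGFs.

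The arrays differed in ways that the groups do not explain. Between 23688 and 39139 probes were detected per array. The arrays lay on 5 slides, each scanned on a day of its own. Slide 1 held 8 arrays and slide 5 held 2, with no control among them, and slide was a term of the model. Each array was correlated with the mean profile of the other arrays of every group, with slide means removed. Only probes called against control at any dose in these same arrays were used. Low dose replicate 1 had the lowest correlation with its own group, -0.279, and 0.726 with the medium dose. The other low dose arrays also followed their own group weakly, at -0.085 to 0.400. Low dose replicates 2 and 5 correlated best with the controls, 4 medium dose arrays with the high dose, and high dose replicate 6 with the medium dose. The labels were kept, and the low dose changes of the measured members are given with and without replicate 1. Per the study's methods the cells were exposed in 3 separate experiments, which is fewer than the 5 or 6 arrays of each group, and nothing in the labels ties an array to an experiment. Some arrays of a group may therefore share an exposure, the p-values measure the spread between these arrays, part of which may be technical, and they may be too small.

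The label of an epithelial line was checked against markers. Epcam was detected on 10 of 22 arrays and Cdh1 on 0, both with no array well above background. Krt7, Krt8 and Krt18 were detected on 22 arrays and Krt19 on 21. Krt8, Krt18 and Krt19 lay at control means of -4.35, -5.62 and -4.91 log2 against the reference. Krt7 had a median Cy5 signal of 144 beside Cy3 312, without normalization. All 7 fibroblast and mesenchymal markers were detected on 22 arrays, from Col1a2 (median Cy5 signal 93354 beside Cy3 87114) to Pdgfra (367 beside 3192). Of these, 5 were called lower than in controls at the high dose, with log2 changes of -1.34 for Col1a1, -1.52 for Col1a2, -1.70 for Col3a1, -2.27 for Dcn and -1.53 for Pdgfra, while Vim and Acta2 were not called. At the low and medium doses 5 of the 7 were called lower too, with median log2 changes over the 7 of -0.83 and -1.24. Between the high and low doses 2 of the 7 were called lower. Of the epithelial markers, Krt7 was called lower at the medium and high doses (-0.79 and -0.85). Markers of other cells were mixed. Of the endothelial ones Kdr was detected on 22 arrays and Pecam1 on 21, but Cdh5 on 1 and Tek on 0. Of the alveolar and airway ones Scgb1a1 was detected on 21 arrays and Sftpc on 17, Sftpb on 3 and Sftpa1 on 0. The leukocyte markers Csf1r, Ptprc and Adgre1 were detected on 22, 21 and 19 arrays. Their median Cy5 signals were 538, 124 and 96.75 beside Cy3 signals of 7987, 1740 and 474. Of 4 endothelial, 4 alveolar and airway and 3 measured leukocyte markers, none was called at any dose. The part of these marker changes in the values of Igf1 was not tested. In RNA from a whole culture, fewer cells of a kind and less RNA per cell cannot be told apart.

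A call required 3 things: a limma adjusted p, taken over all 55681 probes, of at most 0.05, a difference of 1.5-fold or more, and detection on 4 or more arrays of 1 of the groups compared. By this rule no probe of the 13 was called at the low dose, 1 was called at the medium dose and 2 at the high dose, and all of these were Igf1 probes that were lower than in controls. Of all probes, 1.83% were called at the low dose, 3.04% at the medium dose and 4.40% at the high dose, while 1.59% were called lower at the medium dose and 2.46% at the high dose. With a gene given by its brightest probe, 0 of the 9 genes were called at any dose, against 3.60%, 6.01% and 8.35% of all named genes. At an unadjusted p under 0.05, limma had 0 of the 9 genes at the low and medium doses and 2 at the high dose, Igf1 lower and Igf1r higher. By probe this was 2, 2 and 5 of the 13, beside 7793, 8572 and 9892 of all 55681 probes. An ordinary linear model called 0 of the 9 genes at each dose. Among the members detected in each comparison (6, 5 and 5 genes) the median log2 change was -0.06, 0.11 and 0.06, beside 0.01 for all detected probes at each dose, while over all 9 genes, undetected ones included, it was -0.05, -0.11 and -0.11. The sign at the medium and high doses thus depended on genes near background.

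Igf1 was the only ligand clearly measured. Its 4 probes match the same transcript accession, each has 2 spots, and each was well above background on all 22 arrays. All 4 had lower mean log2 ratios at the high dose than in controls, by amounts that ranged from 1.44-fold to 2.95-fold. They are described from the brightest to the dimmest.

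The brightest Igf1 probe, A_55_P2085984, had log2 ratios of 4.48, 3.91, 3.72, 3.76 and 3.60 in the controls. At the low dose they were 3.66, 3.85, 3.96, 3.69, 3.82 and 3.73, and at the medium dose 3.63, 3.63, 3.41, 3.68 and 3.65. At the high dose they were 3.91, 2.96, 3.17, 3.48, 3.02 and 3.35. High dose replicate 1 lay among the controls, and the other 5 high dose arrays lay below every control. The mean was 3.89 ± 0.35 (SD, n = 5) in controls, a 14.9-fold excess over the reference, and at the high dose it was 3.31 ± 0.35 (SD, n = 6). The change at the high dose was -0.55 ± 0.15 (SE), or 1.47-fold lower, with a limma adjusted p of 0.0281. This passed the p threshold but not the 1.5-fold one. At the low and medium doses the changes were -0.08 ± 0.15 and -0.29 ± 0.16 (SE), with limma adjusted p of 0.884 and 0.412, and the first was -0.02 with low dose replicate 1 left out. Without high dose replicate 1 the change was -0.67 (limma adjusted p 0.00557, with a range of 0.00557 to 0.562 over all alternatives) and passed both thresholds, as it did without control replicate 4 (-0.59), control replicate 5 (-0.62) or high dose replicate 4 (-0.60).

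The second probe by brightness, A_55_P2031631, had log2 ratios of 4.70, 4.00, 3.69, 3.54 and 2.93 in the controls and 4.05, 3.17, 2.92, 3.25, 2.65 and 3.19 at the high dose. These groups overlapped: 2 of the 6 high dose arrays lay below every control. Low dose values ranged from 2.87 to 3.98 and medium dose values from 3.45 to 3.76. The changes at the low and medium doses were -0.18 and -0.16 (limma adjusted p 0.786 and 0.829), and the first was -0.16 with low dose replicate 1 left out. The change at the high dose was -0.53 ± 0.20 (SE), with a limma adjusted p of 0.139. Without control replicate 5, whose value was the lowest of the controls, it was -0.72 (limma adjusted p 0.0236, with a range of 0.0236 to 0.687 over all alternatives) and was called.

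The third probe, A_55_P2085974, gave the largest differences of the 13. Its log2 ratios were 4.34, 3.51, 3.65, 3.31 and 2.67 in the controls. They were 3.08, 3.08, 2.85, 2.84, 2.49 and 2.10 at the low dose and 2.89, 2.69, 2.33, 2.54 and 2.37 at the medium dose. At the high dose they were 2.77, 1.60, 1.53, 1.83, 1.39 and 2.08. Of the 6 high dose arrays 5 lay below every control, replicate 1 being the exception, and after the slide effect was removed all 6 did. The means were 3.50 ± 0.60 (SD, n = 5), 2.74 ± 0.38 (SD, n = 6), 2.56 ± 0.23 (SD, n = 5) and 1.87 ± 0.51 (SD, n = 6) from 0 to 100 µg/ml. The probe was 2.95-fold lower at the high dose (-1.56 ± 0.21 SE, limma adjusted p 3.09e-05) and 1.91-fold lower at the medium dose (-0.93 ± 0.21 SE, limma adjusted p 0.0091), and both were called. The medium dose call was lost with median centring (-0.86, limma adjusted p 0.373), with no slide term (limma adjusted p 0.0665) and without slide 3 (-0.84, limma adjusted p 0.0838). At the low dose the change was -0.68 ± 0.21 (SE) with a limma adjusted p of 0.076, and without low dose replicate 1 it was -0.68 with 0.127. The low dose change was called without control replicate 5 (-0.83) and without high dose replicate 1, 2 or 6 (-0.70, -0.67 and -0.70). A model that paired arrays by replicate number, with no slide term, also called it (-0.71, limma adjusted p 0.015, with a range of 0.015 to 0.363 over all alternatives).

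The dimmest of the 4, A_55_P2031636, had log2 ratios of 1.495, 2.04, 1.98, 1.54 and 1.17 in the controls and 0.98, 0.45, 0.85, 0.88, 1.29 and 0.57 at the high dose. Only high dose replicate 5, at 1.29, reached the range of the controls. Low dose values ran from 0.90 to 1.93 and medium dose values from 0.54 to 1.48, and both groups overlapped the controls. The probe was 1.86-fold lower at the high dose (-0.89 ± 0.17 SE, limma adjusted p 0.00141), which was called. At the low and medium doses it changed by -0.38 ± 0.17 and -0.51 ± 0.17 (SE), with limma adjusted p of 0.317 and 0.107, and the first was -0.30 with low dose replicate 1 left out. The Cy5 signals of this probe were low, from 122.5 to 535.5 over all arrays and from 126.75 to 218 at the high dose. The detection limits ran from 74.3 to 119, and no background was subtracted.

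**Figure D1:**
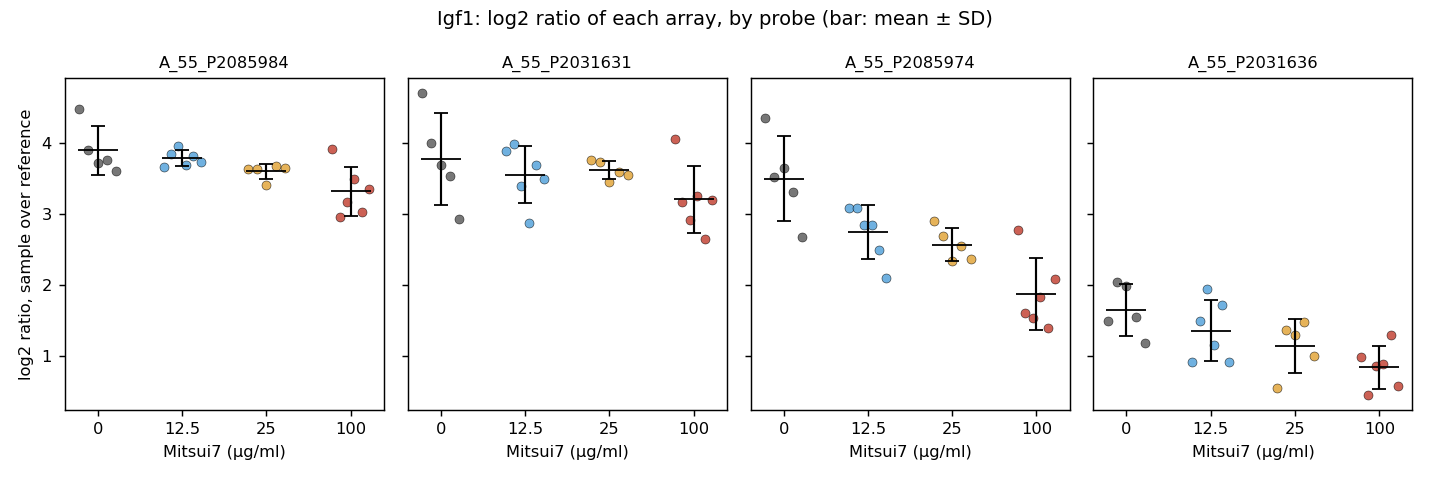
Log2 ratio (Cy5 sample over Cy3 reference) of the 4 Igf1 probes, from the brightest on the left to the dimmest on the right, against the Mitsui7 concentration. Each point is 1 array and the black bars are the mean ± SD. A_55_P2085974 goes from a mean of 3.50 in controls to 1.87 at 100 µg/ml, while the brightest probe goes from 3.89 to 3.31.

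The 4 probes gave different sizes for the same gene. With the difference between a pair of probes as the value of each array, A_55_P2085974 changed between control and high dose by 1.05 log2 units more than the brightest probe and by 1.06 more than A_55_P2031631. Both had an exact permutation p of 0.00216, two-sided over 462 splits, which is the smallest such a design allows, and 0.00649 after adjustment over 6 pairs. Against A_55_P2031636 it changed by 0.82 more (exact permutation p 0.0455, adjusted 0.0909). That last probe is dim, and without background subtraction its change may be understated. For the other 3 pairs the difference moved by 0.24 or less with slide ignored (exact permutation p 0.413 to 0.955). These splits exchange arrays across slides. Labels were also exchanged only within the 4 slides that hold controls, over 10 arrays and 48 arrangements. The differences of A_55_P2085974 from the brightest probe and from A_55_P2031631 then had an exact permutation p of 0.0417, two-sided and the smallest possible there. Adjusted over 6 pairs this was 0.125, which does not pass. At this floor 2 pairs alone could not have passed, so this form cannot decide. Its difference from A_55_P2031636 had an exact permutation p of 0.167. Within slides the brightest probe and A_55_P2031631 changed by 0.38 and 0.45 less than A_55_P2031636 (exact permutation p 0.208 for each). The third pair moved by -0.06 (exact permutation p 0.75). Both forms of the comparison were added after A_55_P2085974 was seen to change most. Across the 22 arrays, with slide means removed, the pairs of probes correlated at r from 0.575 to 0.855, over arrays that share the doses. The position of each probe on the transcript was not analysed here. When the 4 probes were averaged, Igf1 was 1.84-fold lower at the high dose (-0.88 ± 0.15 SE, limma adjusted p 0.000371), and the change at the medium dose was -0.47 (limma adjusted p 0.0557).

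Within slides the 2 called probes were lower at every dose than the controls of the same slide, but the order of the low and medium doses varied. Compared with the mean control of its own slide, A_55_P2085974 was lower in 5 of 5 arrays at each of the 3 doses, with medians of -0.80, -1.04 and -1.48, and A_55_P2031636 was lower in 5 of 5 arrays at each dose, with medians of -0.28, -0.41 and -0.79. The medium dose was closer to the control than the low dose on slide 4 for A_55_P2085974 (-0.30 against -0.57) and on slides 2 and 4 for A_55_P2031636 (-0.06 against -0.39 and -0.17 against -0.27). The brightest probe was lower in 3, 4 and 5 of 5 arrays, and A_55_P2031631 in 4, 3 and 4. Slide 4 gave the smallest differences at the high dose for all 4 probes, for example -0.59 for A_55_P2085974 against -2.12 on slide 3, and for A_55_P2031631 it was 0.26. The control of slide 4 is control replicate 5, whose log2 ratio was the lowest control value of each of the 4 probes. Slide 5, with no control, could not be compared in this way.

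**Figure D2:**
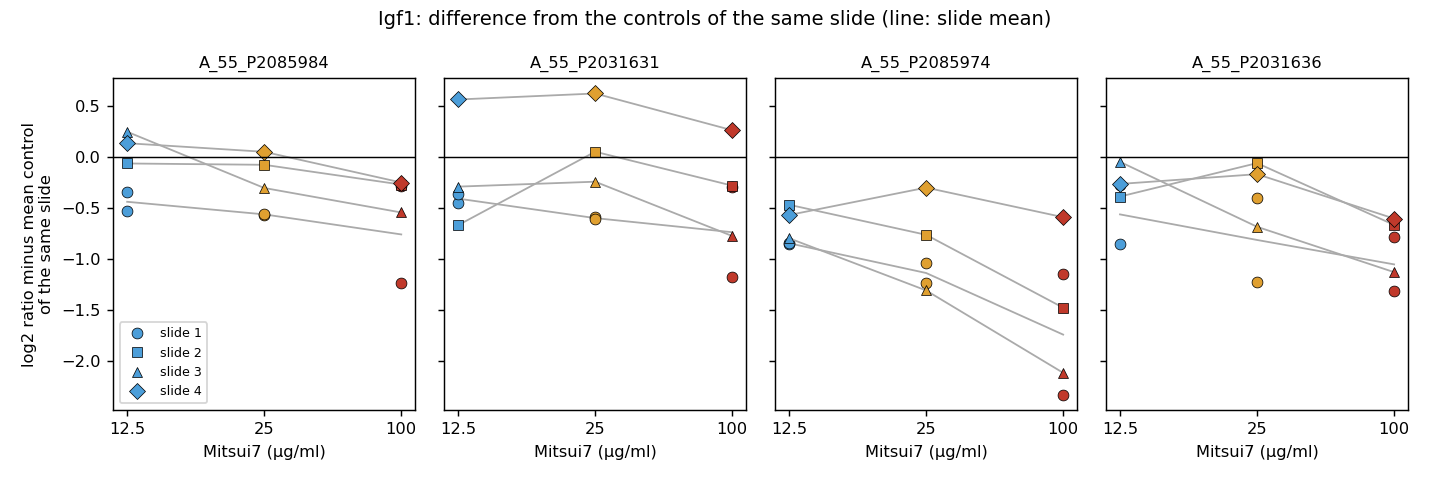
Log2 ratio of each exposed array minus the mean control of the same slide for the 4 Igf1 probes, against the Mitsui7 concentration. Symbols mark the slide, lines join slide means and 0 is the control of that slide. All points of A_55_P2085974 and A_55_P2031636 lie below 0, and slide 4 (diamonds) lies closest to 0 at 100 µg/ml.

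The order of the group means of Igf1 was control, low, medium, high for 3 of the 4 probes, but neighbouring doses were not told apart. Of the 13 probes 0 were called between any pair of doses. Of all probes 0% were called between the low and medium and between the medium and high doses, and 0.154% between the low and high doses, or 0.330% of named genes. At an unadjusted limma p under 0.05 there were 0, 2 and 4 of the 13 probes for medium against low, high against medium and high against low. Of all 55681 probes there were 3219, 2330 and 4645. The 4 include the Igfbp3 probe, which did not meet the detection rule, and leave out A_55_P2031631 (limma p 0.0779). An ordinary linear model called 0 of the 9 genes between doses. The largest difference between doses was that of A_55_P2085974, which was -0.87 ± 0.19 (SE) lower at the high than at the low dose with a limma adjusted p of 0.0583. It was called without high dose replicate 1 (-0.996), high dose replicate 6 (-1.02) or slide 4 (-1.04). At the same -0.87 it was also called without control replicate 1 or 5, when arrays were paired by replicate number and with adjustment over detected probes. Without low dose replicate 1 it was -0.88 with a limma adjusted p of 0.0612. The study also listed Igf1 among the genes of a hepatic fibrosis pathway that its own test counted as changed in these cells. That list names no probe or dose. It rests on these same samples, so the place of Igf1 in it is not independent of the values given here.

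By the rule on likeness, the named genes whose log2 ratios followed the brightest Igf1 probe most closely over the 22 arrays, with slide means removed and among 9872 genes, were Idi1 (r = 0.906), an isomerase of the isoprenoid and cholesterol pathway, and Ninj1 (r = 0.905), which acts in cell adhesion and membrane rupture. For A_55_P2085974 they were Cd34 (r = 0.954), a surface sialomucin of progenitor cells, and Idi1 again (r = 0.950). For A_55_P2031631 they were Zfp672 (r = 0.857) and Tbc1d8b (r = 0.852), and for A_55_P2031636 Acta1 (r = 0.915), a skeletal muscle actin, and Hacd4 (r = 0.911), so that the genes most like Igf1 depended on the probe. Idi1 was lower than in controls by 1.04 on the log2 scale at the high dose (-1.04), Ninj1 changed by -0.77 and Cd34 by -0.70. These correlations describe arrays that share the doses.

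The second ligand, Igf2, a growth factor of fetal tissues, was near the detection limit. Its Cy5 signal ran from 73.0 to 94.0 over the 22 arrays, with a median of 81.0, while the limit set by negative control spots ran from 74.3 to 119 between arrays. It was detected on 11 arrays and was well above background on 1, at the low dose. The signal did not separate the groups, and no fold is given. Igf2 met the detection rule at the low dose only, on 4 of 6 arrays, and so counts among the 6 detected members there. At signals this close to the limit a change of Igf2 could not be measured in any group.

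**Figure D3:**
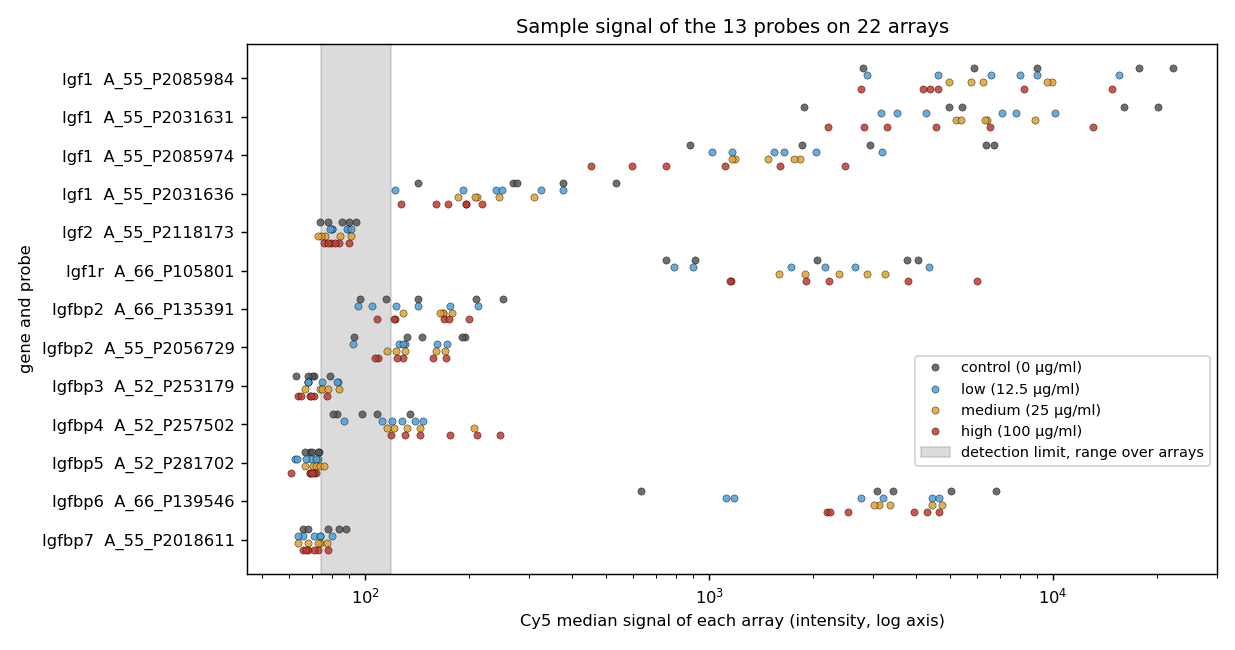
Cy5 median signal of each array (log axis) for the 13 probes, coloured by group, with the range of the detection limit over arrays in grey. The probes of Igf2, Igfbp3, Igfbp5 and Igfbp7 lie inside or below the grey band in all groups, while Igf1r, Igfbp6 and the 3 brighter Igf1 probes lie well to its right.

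The receptor gene Igf1r was well above background on all 22 arrays, with Cy5 signals from 750.0 to 5993. Its log2 ratios were 0.00, -0.54, -0.04, -0.09 and -0.02 in the controls and 0.66, -0.19, 0.21, -0.12, 0.24 and 0.48 at the high dose. At the low dose they ran from -0.48 to 0.34, and at the medium dose from -0.15 to 0.19. Control replicate 2 was the lowest of the controls, and 4 of the 6 high dose arrays lay above every control. The level was close to that of the reference in each group, with a mean of -0.14 ± 0.23 (SD, n = 5) in controls, while the high dose mean was 0.21 ± 0.33 (SD, n = 6). The changes were 0.18 ± 0.16, 0.22 ± 0.16 and 0.36 ± 0.16 (SE) from the low to the high dose, with limma adjusted p of 0.694, 0.605 and 0.223. With low dose replicate 1 left out the first of these was 0.09. The 95% interval at the high dose, from 0.03 to 0.69, leaves room for a rise of 1.5-fold, so these data neither show a change nor limit it to a small one.

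Among the binding proteins, Igfbp6, which prefers Igf2 over Igf1, was the one measured well above background on all 22 arrays. Its log2 ratios were -2.79, -1.94, -2.50, -2.63 and -3.18 in the controls and -2.88, -1.88, -2.90, -2.41, -2.53 and -2.70 at the high dose. Low dose values ran from -3.62 to -2.08 and medium dose values from -2.62 to -1.97, and the 4 groups overlapped. The control mean of -2.61 ± 0.45 (SD, n = 5) was 6.10-fold below the reference. The changes were -0.09 ± 0.22, 0.16 ± 0.22 and 0.06 ± 0.22 (SE), with limma adjusted p of 0.912, 0.839 and 0.95, and the sign at the high dose turned under the scanner's own log ratio (-0.05). Without low dose replicate 1 the first was -0.10. At the high dose the 95% interval ran from -0.40 to 0.52.

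Igfbp2, a carrier of both IGFs, was detected by both of its probes at signals close to background. The brighter one, A_66_P135391, had Cy5 signals from 95.5 to 251 and was well above background on 18 of 22 arrays. Its log2 ratios were -3.88, -3.04, -3.52, -3.15 and -2.28 in the controls and -3.75, -3.25, -3.70, -3.09, -3.32 and -3.07 at the high dose. The control mean was 9.02-fold below the reference by this probe and 14.4-fold by the other, A_55_P2056729. The changes at the low, medium and high doses were -0.10 ± 0.17, -0.13 ± 0.18 and -0.18 ± 0.17 (SE) for the first and -0.20 ± 0.20, -0.30 ± 0.20 and -0.33 ± 0.20 (SE) for the second, and all 3 signs of the first turned under the scanner's own log ratio (0.14, 0.05 and 0.05). Without low dose replicate 1 the low dose changes were -0.08 and -0.13. None was called, and the lowest limma adjusted p was 0.463. The 95% intervals at the high dose ran from -0.54 to 0.18 and from -0.74 to 0.09.

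Igfbp4, which binds IGFs and is cleaved by pappalysins, was detected on 20 arrays and well above background on 16, of which 1 was a control and 6 were high dose arrays. Control replicate 3 had no log2 ratio because its spot was marked as an outlier. The other controls had log2 ratios of -4.07, -2.91, -2.58 and -1.65, the widest spread of any gene in the set. At the high dose the values were -2.89, -2.49, -2.34, -2.10, -2.30 and -2.10, all within the range of the controls. The changes were 0.07 ± 0.22, 0.11 ± 0.23 and 0.44 ± 0.22 (SE), with limma adjusted p of 0.94, 0.909 and 0.33, and the fit left out control replicate 3. Without low dose replicate 1 the first was 0.15. With normexp background correction the low and medium dose values turned sign (-0.06 and -0.0023), as did the low dose value with median centring (-0.11). The Cy5 signals were 98.0, 83.0, 135, 108 and 80.5 in the controls and 176.5, 211, 246, 119, 144 and 131 at the high dose. The scanner's own log ratio, which subtracts background and has its own dye normalization, gave 1.06 at the medium dose and 1.60 at the high dose (limma adjusted p 0.0216 and 0.000678, with ranges up to 1 and 0.937 over all alternatives). With normexp, which also corrects for background, the high dose change was 0.33 (limma adjusted p 0.606) and was not called.

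Igfbp3, the main carrier of circulating IGFs, Igfbp5, a binding protein of matrix and muscle, and Igfbp7 gave Cy5 signals of 63.0 to 84.0, 61.0 to 76.0 and 64.0 to 88.0. They were detected on 5, 0 and 3 arrays and well above background on none. No fold was taken for them, and they were not measurable at this sensitivity.

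**Figure D4:**
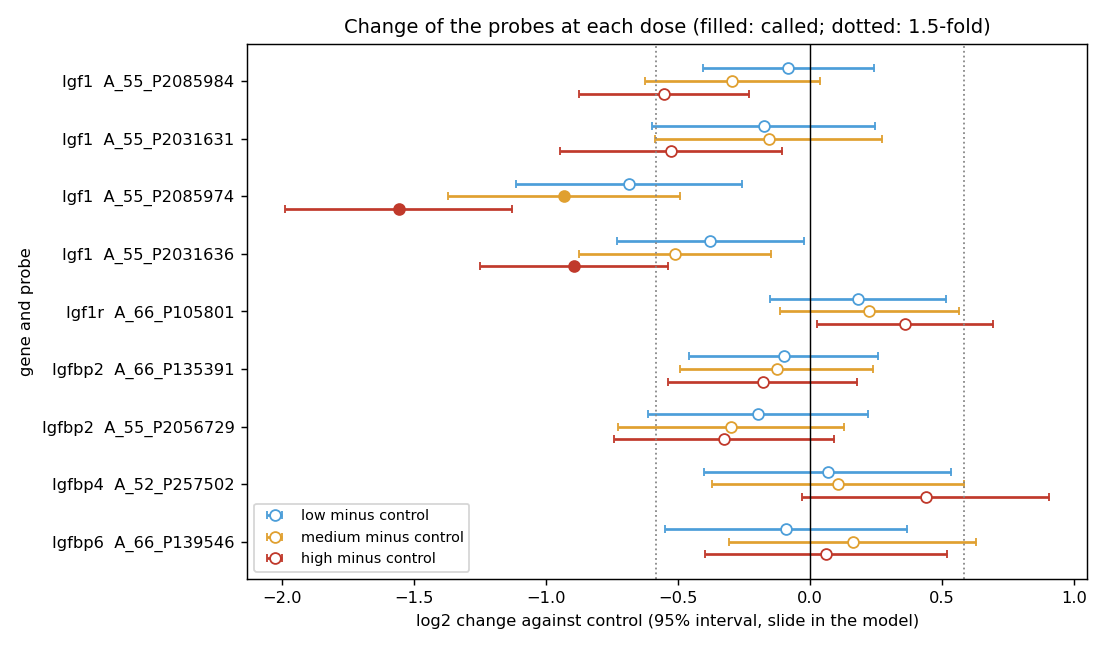
Log2 change against control (horizontal axis) of the 9 probes of Igf1, Igf1r, Igfbp2, Igfbp4 and Igfbp6 at each dose, from the model with slide, with 95% intervals. Filled points were called and dotted lines mark 1.5-fold. The filled points are A_55_P2085974 at the medium and high doses (-0.93 and -1.56) and A_55_P2031636 at the high dose (-0.89).

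The genes around this system were read from 5 lists of 45 genes, of which 44 had a probe. By the brightest probe 1, 2 and 6 of the 44 were called at the low, medium and high doses. At the high dose this was 3 genes higher and 3 lower, beside 8.35% of all named genes called, 3.83% higher and 4.52% lower. The median log2 change of the 44 genes at the high dose was -0.04. Without high dose replicate 1 there were 3 called genes in place of 6. Between doses limma called 0 of the 44, with 2, 3 and 9 at an unadjusted p under 0.05 for medium against low, high against medium and high against low, and the ordinary linear model was not counted for these. Of all 55681 probes, 3219, 2330 and 4645 were under 0.05 in these comparisons, and named genes were not counted in this way.

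Of the 22 genes of signalling below the receptor, 4 were called at the high dose. Grb14, an adaptor that restrains signalling from the insulin receptor, was called at all 3 doses. Its log2 ratios were 3.87, 2.95, 3.25, 3.28 and 3.29 in the controls and 2.51, 2.62, 2.72, 2.73, 2.54 and 2.58 at the low dose. They were 2.85, 2.08, 2.38, 2.47 and 2.30 at the medium dose and 2.56, 1.67, 1.95, 2.19, 1.58 and 1.89 at the high dose, so no exposed array overlapped the controls. Grb14 fell by 0.67 ± 0.17, 0.92 ± 0.17 and 1.31 ± 0.17 (SE) on the log2 scale, with limma adjusted p of 0.0285, 0.00198 and 2.29e-05, and was 2.48-fold lower at the high dose. With low dose replicate 1 left out, the change at that dose was -0.62 with a limma adjusted p of 0.0712 (0.000868 to 0.287 over all alternatives) and was no longer called, and leaving out control replicate 1, 3, 4 or 5 or low dose replicate 2, 4 or 6 ended that call too, at changes of -0.70 to -0.53. The low dose call was also lost with median centring, the series matrix, the ordinary linear model and a fit of only the groups compared, and the medium dose call with median centring (-0.84, limma adjusted p 0.25). Without slide 1, 2, 3 or 4 the low dose call was lost as well (-0.56, -0.70, -0.70 and -0.65). In all, 18 of 44 alternatives ended it.

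Irs1 and Irs2, the docking proteins that couple the receptor to PI3 kinase, were both called higher at the high dose. Irs1 ranged from 1.85 to 2.46 in controls, with a median of 2.08, and from 2.50 to 3.22 at the high dose, with a median of 2.69, and the groups did not overlap. It rose by 0.69 ± 0.14 (SE), or 1.61-fold (limma adjusted p 0.00291), and a second probe gave 0.61 (limma adjusted p 0.00968). Irs2 ranged from -0.65 to 1.10 in controls and from 0.56 to 1.47 at the high dose. The ranges overlapped before, and not after, removal of the slide effect. It rose by 0.83 ± 0.15 (SE), or 1.78-fold (limma adjusted p 0.00108), and by 0.59 at the medium dose (limma adjusted p 0.0284), a call that was lost without control replicate 2, 4 or 5 or medium dose replicate 3 or 5, at changes of 0.45 to 0.60. With median centring both high dose calls were lost (Irs1 0.66, limma adjusted p 0.429, and Irs2 0.79, limma adjusted p 0.180), as was that of Irs2 with no slide term (0.82, limma adjusted p 0.115). The medium dose call of Irs2 was lost with these settings and with the scanner log ratio, normexp, slide as a random block, the ordinary linear model and a fit of only the groups compared. It was also lost without slide 3 or slide 4 (0.62 and 0.41).

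Foxo1, a transcription factor that Akt keeps out of the nucleus, fell by 0.64 ± 0.16 (SE) at the high dose (limma adjusted p 0.0144). Its brightest probe ranged from -1.20 to -0.52 on the 4 controls that had a value and from -1.98 to -0.91 on 5 high dose arrays, and these ranges overlapped. A second Foxo1 probe ranged from -0.65 to -0.27 in controls and from -1.40 to -1.07 at the high dose, without overlap, and gave -0.81 ± 0.17 (SE, limma adjusted p 0.00323). The first probe lost its call without control replicate 2 or 4 or without high dose replicate 1 (-0.50, -0.60 and -0.56) and when arrays were paired by replicate number (-0.58). It was also lost with median centring (adjusted p 0.0677), no slide term (0.274), slide as a random block (0.0581), the ordinary linear model (0.0504) and without slide 1 or slide 2 (0.229 and 0.0691). The PI3 kinase subunit Pik3r1 (-0.53, limma adjusted p 0.00101) and the adaptor Shc1 (-0.41, limma adjusted p 0.011) passed the p threshold at less than 1.5-fold. The catalytic subunits Pik3ca and Pik3cb, the kinases Akt1, Akt2 and Gsk3b, and Mtor had high dose changes from -0.14 to 0.29 and were not called.

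Of the 5 proteases of binding proteins and their inhibitors, Pappa2 and Stc2 were called at the high dose. Pappa2, a protease that cuts Igfbp3 and Igfbp5, ranged from -1.23 to -0.92 in controls and from -2.07 to -1.33 at the high dose, without overlap, and fell by 0.63 ± 0.14 (SE, limma adjusted p 0.00502). Its probe was dim, with Cy5 signals of 86.5 to 134 at the high dose beside detection limits of 74.3 to 119. It was detected on 22 arrays and well above background on 17. A second Pappa2 probe was not above background. The first call was lost without high dose replicate 1 or 6 (-0.57 and -0.50), with the series matrix (-0.56) and without slide 1 or slide 4 (-0.69 and -0.51). Stc2, an inhibitor of pappalysins, ranged from -1.33 to -0.14 in controls and from -0.23 to 0.16 at the high dose, and rose by 0.64 ± 0.18 (SE, limma adjusted p 0.0262). Its call was lost without any of control replicates 1, 2 and 3 or high dose replicates 1, 2, 3 and 4, at changes of 0.49 to 0.65, and with median centring (adjusted p 0.213), the series matrix (0.0628), the ordinary linear model (0.0721) and without slide 1 or slide 3 (0.318 and 0.107). The protease Htra1 changed by 0.61 ± 0.20 (SE) with a limma adjusted p of 0.0662.

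**Figure D5:**
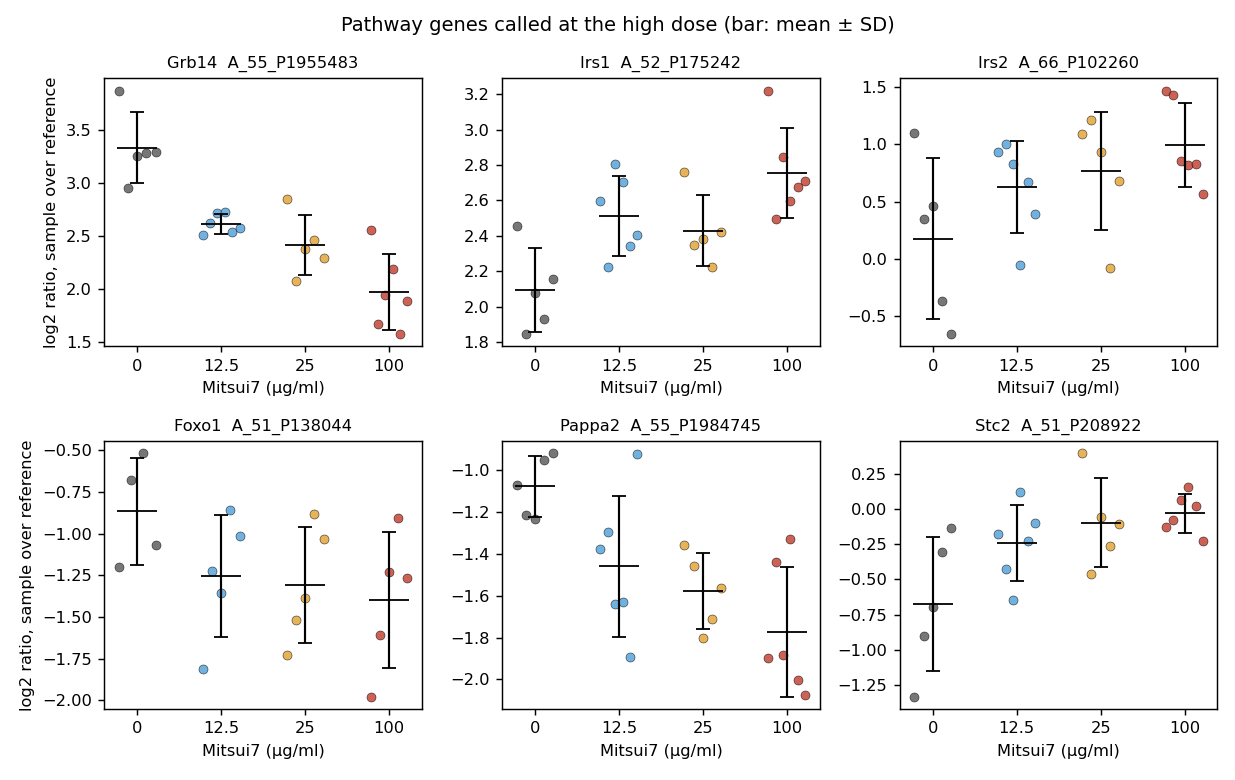
Log2 ratio (Cy5 sample over Cy3 reference) of the 6 pathway genes called at the high dose, against the Mitsui7 concentration, each by its brightest probe. Each point is 1 array and the bars are the mean ± SD. Grb14, Foxo1 and Pappa2 are lower and Irs1, Irs2 and Stc2 higher at 100 µg/ml, and Grb14 shows no overlap of controls with any dose.

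The other lists gave no call at any dose by the brightest probe. They were the 8 other ligands, receptors and carriers, which include Igf2r and Insr, the 5 genes of the growth hormone axis and the 4 measured genes of Igf2 messenger binding and imprinting. In the growth hormone axis, which controls Igf1 in the liver, Jak2 (-0.45), the receptor Ghr (-0.46) and the feedback inhibitor Socs2 (0.49) had limma adjusted p of 0.0062, 0.0349 and 0.00545 at the high dose, all at less than 1.5-fold. For Igf2bp2, which binds the Igf2 messenger, the brightest probe changed by 0.51 (limma adjusted p 0.208) and a dimmer one by 0.68 (limma adjusted p 0.0159), which was called.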

How the data were processed

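The deposited scanner files hold spot intensity, which the authors extracted as median signals of both dyes without normalization, with the marks for outliers and signal well above background. They also hold a deposited log10 ratio from the scanner software, and the authors' series matrix holds log2 ratios whose normalization is not given in the sources used here. Per the file headers the software was Feature Extraction 10.7.3.1 and the grid was on mm9. The study's methods name another version.

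Groups came from the sample labels. Control spots (3671 per array) were left out and outlier spots were treated as missing. The log2 of Cy5 over Cy3 median signals, with no background subtracted, was normalised by loess on each array. Spots of a probe were combined by median. Ratios without background subtraction understate changes of dim probes. Detection needed a Cy5 signal above the 5% trimmed mean plus 3 trimmed SDs of 308 negative control spots. Symbols came from RefSeq accessions (26413 of 55681 probes); no coordinates are given, as builds differ.

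The model, fitted with limma 3.58.1 (R 4.3.3), had group and slide as terms over 22 arrays with Benjamini-Hochberg adjustment over all probes, and the code was tested on simulated data. The shrinkage test of the study was replaced by limma. A gene is given by its brightest probe, with its other probes beside it. The text names the 9 genes, every pathway gene called at any dose, the markers that were called and, for Igf1, the 2 most correlated genes; further pathway genes were named after their values were seen. The values of 1 listed gene are not reported here. The likeness rule covered genes called by their brightest probe, and Igf1 was added after its values were seen. Members and lists were chosen with earlier results of these data known.

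Deviations from group means were correlated between same-numbered arrays of each exposed group and the controls. All 15 pairs had r over 0.1 (0.196 to 0.851), but most share a slide and slide effects were not removed. Arrays of unlike number on the same slide were not compared, so this check cannot show that the numbers pair the arrays. The number of arrays limits the precision.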

Additional observations from a re-analysis of the deposited data

Results flagged for a closer look

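In 60 groups of values (9 probes of the set and 6 pathway genes, in 4 groups each), a single array lay far from the rest of its group in 5 cases. About 1 in 20 groups would be marked by chance. The brightest Igf1 probe, A_55_P2085984, was at 3.41 in medium dose replicate 3 against 3.63 to 3.68 in the other 4 arrays. Igf1r was at -0.54 in control replicate 2 against -0.09 to 0.00, and at -0.15 in medium dose replicate 2 against 0.10 to 0.19. Both of these arrays are on slide 1, and the same medium dose array was at -1.97 for Igfbp6 against -2.62 to -2.52. The Igfbp2 probe A_66_P135391 was at -2.43 in low dose replicate 6 against -3.62 to -3.35. Their causes were not tested.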

How the results depend on the processing

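Of the 43 alternatives, all kept the high dose call of the Igf1 probe A_55_P2085974 (-1.78 to -1.39), and all but the 2-fold threshold kept that of A_55_P2031636. Of the 44 run on genes, all kept that of Grb14. None called any of the 9 genes at the low dose or between doses. Counts of called genes and probes moved as follows, and causes were not tested unless the setting itself gives them. With the scanner log ratio 1 gene was called at the medium dose and 1 at the high dose, and 2 probes at the medium dose. At the high dose 1 gene was called with no fold threshold, with the mean of detected probes of a gene and without slide 4. Median centring, no slide term, a 2-fold threshold and leaving out slide 3 each left 0 probes at the medium dose. Without slide 1 there were also 0, but controls and medium dose then had 3 arrays each, so that no probe could meet the detection rule in that comparison and the count is void. The 2-fold threshold left 1 probe and 1 pathway gene at the high dose, and without slide 4 there were 4 probes. Pathway genes called at the high dose were 2 with median centring and 11 with no fold threshold. Adjustment over detected probes gave 1 probe at the low dose. With the replicate block in place of slide, which pairs arrays by number, 1 probe was called at the low dose and Igfbp4 turned to -0.0461 there. The block also called A_55_P2085974 between the high and low doses, ended the call of Foxo1 (-0.578, under 1.5-fold) and changed no other call of the member probes or of the 6 pathway genes called at the high dose.

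Signs turned for values that were not called. For Igfbp4 this was at the low dose with median centring (-0.108), normexp (-0.0568) and without slide 1 (-0.188), and at the medium dose with normexp (-0.0023) and without slide 1 (-0.263). For the Igfbp2 probe A_66_P135391 it was with the scanner log ratio (0.142, 0.0507 and 0.0525 from the low to the high dose) and, at the medium dose, without slide 4 (0.00599). For Igfbp6 it was with the scanner log ratio (-0.0462) and without slide 4 (-0.0522) at the high dose, and without slide 2 at the low dose (0.108). For the Igf1 probe A_55_P2031631 it was at the low dose with the scanner log ratio (0.0107), the series matrix (0.00576) and outlier spots kept (0.0036), and at the medium dose without slide 1 (0.141). For A_55_P2085984 it was at the low dose without slide 1 (0.146).

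Leaving out 1 array at a time gave 0 to 1 called probes at the low dose, 0 to 1 genes and 2 to 4 probes at the high dose, and 3 to 7 pathway genes. The gene count rose without control replicate 4 or 5 or high dose replicate 1 or 4, the 4 probes were reached without control replicate 5, and the count of 3 pathway genes was that without high dose replicate 1. Changes that turned sign ranged at the low dose from -0.155 to 0.056 for A_55_P2085984, from -0.232 to 0.321 for Igfbp4, from -0.227 to 0.0041 for Igfbp2 and from -0.228 to 0.111 for Igfbp6. At the medium dose they ranged from -0.193 to 0.360 for Igfbp4 and from -0.348 to 0.0018 for A_55_P2031631, and at the high dose from -0.0763 to 0.207 for Igfbp6. Signal close to background limits Igf2, Igfbp2, Igfbp3, Igfbp4, Igfbp5 and Igfbp7, and Pappa2 among the called pathway genes. The called Igf1 probe A_55_P2031636 was dim too, with Cy5 signals of 122.5 to 535.5, though well above background on all 22 arrays.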
